A study of Homo sapiens with 16 samples.

Results

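The genes described here are the long intergenic noncoding RNAs that carry a LINC symbol, a family name for transcripts that lie between protein-coding genes and have no assigned function when they are named. Members were chosen by their measured level: they are the rows of both count tables with a symbol of LINC followed by digits whose mean over 8 libraries reached 0.5 CPM in Ishikawa or in T-47D, where CPM is a gene's count scaled to its library total. The rule kept 170 of 874 LINC rows, in tables of 26364 genes. Of the 874 rows, 300 had 0 counts in all 16 libraries.

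The human lines were Ishikawa, from an endometrial adenocarcinoma, and T-47D, from a ductal carcinoma of the breast, and both carry estrogen receptor alpha. Cells were kept in hormone-deprived medium and then received vehicle (the 0 h group) or 10 nM 17beta-estradiol (E2), the latter for 2, 4 or 8 h. Each line had 2 replicates at each time. Each line is a single established tumour line, the vehicle cells shared the deprived medium, and poly(A) RNA was sequenced from bulk lysates with a directional kit. In bulk RNA, fewer cells with a transcript and less transcript per cell cannot be told apart. The labels do not say whether replicates were separate cultures, so p-values measure only the spread between these libraries.

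Long noncoding RNAs are made by RNA polymerase II, spliced and polyadenylated like messenger RNAs, and are typically present at low copy number in few cell types. Some act near their own locus on neighbouring genes, others bind proteins or other RNAs at a distance, and some were later found to encode small proteins. E2 binds estrogen receptor alpha, which then binds DNA at estrogen response elements or through other factors, and many noncoding transcripts near such sites respond together with coding genes. Responses are divided here into Early and Late. Early means called at 2 h and Late means called first at 4 or 8 h, where called is an adjusted p under 0.05 over all genes tested in edgeR's quasi-likelihood test.

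Promoter sequences are shown for 5 members on which the results below turn, namely LINC01016 and LINC00565, which rose in both lines, LINC00673, whose response differed between lines, LINC01468, which fell in T-47D, and LINC01508, which fell in Ishikawa. The sequences are RefSeq windows (GRCh38.p14) from 250 bases before to 50 bases after the annotated start, and each matched the GRCh37 (hg19) genome exactly once, on the minus strand. The windows lie at chr6:33864635-33864934 for LINC01016, chr13:114631915-114632214 for LINC00565, chr17:70588894-70589193 for LINC00673, chr10:54230244-54230543 for LINC01468 and chr9:93195722-93196021 for LINC01508. Capitals mark matches to any of 5 motifs searched on both strands, which do not overlap in these windows.
LINC01016: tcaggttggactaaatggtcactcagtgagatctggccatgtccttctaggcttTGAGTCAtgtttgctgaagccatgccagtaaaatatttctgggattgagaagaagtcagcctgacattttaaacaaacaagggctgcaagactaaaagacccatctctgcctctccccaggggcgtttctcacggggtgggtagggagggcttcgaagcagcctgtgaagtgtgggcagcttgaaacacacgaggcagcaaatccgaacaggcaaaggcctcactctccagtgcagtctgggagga
LINC00565: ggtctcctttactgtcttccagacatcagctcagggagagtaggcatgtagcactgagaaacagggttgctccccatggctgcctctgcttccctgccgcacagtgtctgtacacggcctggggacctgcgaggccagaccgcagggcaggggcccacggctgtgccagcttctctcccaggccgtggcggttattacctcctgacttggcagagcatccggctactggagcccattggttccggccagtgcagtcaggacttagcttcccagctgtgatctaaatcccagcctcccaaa
LINC00673: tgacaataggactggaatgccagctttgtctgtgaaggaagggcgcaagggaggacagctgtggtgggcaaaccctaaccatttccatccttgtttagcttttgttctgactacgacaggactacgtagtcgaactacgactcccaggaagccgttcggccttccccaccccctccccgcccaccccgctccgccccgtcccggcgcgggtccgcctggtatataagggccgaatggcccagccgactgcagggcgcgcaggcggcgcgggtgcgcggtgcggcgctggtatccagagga
LINC01468: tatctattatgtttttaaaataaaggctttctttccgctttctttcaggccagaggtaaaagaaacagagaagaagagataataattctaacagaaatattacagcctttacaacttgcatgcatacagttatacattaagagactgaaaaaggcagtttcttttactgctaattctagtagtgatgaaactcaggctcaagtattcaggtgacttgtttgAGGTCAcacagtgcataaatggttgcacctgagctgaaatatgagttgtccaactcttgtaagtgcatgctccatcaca
LINC01508: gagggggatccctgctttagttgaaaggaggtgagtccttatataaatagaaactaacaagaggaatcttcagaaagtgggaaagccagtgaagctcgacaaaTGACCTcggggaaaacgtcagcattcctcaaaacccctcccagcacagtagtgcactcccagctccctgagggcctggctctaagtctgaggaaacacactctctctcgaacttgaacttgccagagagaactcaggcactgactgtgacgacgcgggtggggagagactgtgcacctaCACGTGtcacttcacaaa

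The capitals are an AP-1 site 196 bases upstream of the LINC01016 start, an estrogen response element half-site 29 bases upstream of the LINC01468 start, and, in LINC01508, a half-site on the opposite strand beginning 147 bases upstream and an E-box 33 bases into the transcript. LINC00565 and LINC00673 held none of the 5 motifs. The LINC01468 window lies inside the GENCODE span of that gene (chr10:54210634-54515269), far from its 5' end at 54515269. Its half-site is therefore placed from the RefSeq start and not from the start of that span. A full element can contain half-sites. A RefSeq window was found for 131 of the 170 members. The full palindromic estrogen response element, both half-sites facing each other, was in 0 of 131 member windows and in 0.0347% of all 17285 windows of this length. The half-site AGGTCA was in 31 member windows (23.7%) against 12.2% of all windows, and the AP-1 site TGANTCA in 15 (11.5%) against 6.17%. The forkhead site TGTTTAC was in 5 member windows (3.82%) against 2.75%, and the E-box CACGTG in 10 (7.63%) against 8.65%. Of the 6 members with a window that rose in Ishikawa at any time, 0 held the half-site, against 4 of 6 that fell (LINC00941, LINC01096, LINC01061 and LINC01508). In T-47D the half-site was in 1 of 13 members that rose (LINC00938) and in 4 of 17 that fell (LINC01468, LINC01001, LINC00365 and LINC00482). A match is a string of letters and not a measured binding site, and these shares were not tested.

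All 170 members had a RefSeq entry, 42 of them now under another symbol, and 157 had a position on GRCh37. The current names describe what some of them do. LINC00657 is NORAD, which binds PUMILIO proteins, LINC00565 is SWINGN, LINC01578 is CHASERR, which lies beside and represses the chromatin remodeller gene CHD2, and LINC00152 is CYTOR. Among the members, 12 are now listed as protein-coding, including LINC00116 (mitoregulin), LINC00998 (SMIM30), LINC00493 (SMIM26) and LINC01420 (NBDY, a small protein of the mRNA decapping complex). In genome position, 29 members overlapped a coding gene on the opposite strand, 9 overlapped one on the same strand, and 24 began head to head with a coding gene within 5000 bases.

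Library totals ran from 41177912 to 58918642 counts in Ishikawa and from 41223813 to 64148903 in T-47D. The members together took 0.131 to 0.150% of the counts in Ishikawa and 0.177 to 0.189% in T-47D. Of 6 markers of endometrial epithelium, PAX8, EMX2 and SOX17 stood at 306, 96.3 and 44.9 CPM in Ishikawa at 0 h. In T-47D they stood at 0.0467, 0 and 0 CPM. Of 6 markers of luminal breast epithelium, GATA3 and SPDEF stood at 0.0438 and 0.0657 CPM in Ishikawa and at 1184 and 315 CPM in T-47D. The full lists were less separate, since 4 luminal genes were high enough to be tested in Ishikawa and 2 endometrial genes in T-47D. In Ishikawa TRPS1 was called lower at 2 h and SPDEF and PRLR higher at 8 h, and in T-47D WT1 was called higher at 8 h. ESR1 stood at 244 and 164 CPM. Of 4 markers of other cells, the leukocyte and endothelial genes PTPRC, CD3E and PECAM1 were under 0.1 CPM in both lines, while the collagen gene COL1A1 was at 268 CPM in Ishikawa and 87.4 CPM in T-47D. COL1A1 was called lower at 4 and 8 h in Ishikawa and at 8 h in T-47D, and its part in the results below was not tested. In both lines 0 h replicate 2 was often the highest of the 8 libraries. This held for 38 of the 118 members at the threshold in Ishikawa and for 37 of the 142 in T-47D.

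The threshold kept 118 members in Ishikawa and 142 in T-47D, with 90 in both lines, 28 in Ishikawa only and 52 in T-47D only. Treated libraries entered this mean, and 4 of the 118 and 5 of the 142 were below 0.5 CPM at 0 h. Near the cut-off in Ishikawa, LINC00539 and LINC00176 averaged 0.511 and 0.513 CPM and were kept, while LINC00466 and LINC00926 averaged 0.486 and 0.492. Near the cut-off in T-47D, LINC01063 and LINC00304 averaged 0.519 and 0.527 CPM, while LINC00939 and LINC01249 averaged 0.436 and 0.482.

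LINC00657 was the most abundant member in both lines, at a mean of 492 CPM in Ishikawa and 676 CPM in T-47D, and alone gave 30.6 to 36.8% and 34.3 to 38.2% of the members' counts. LINC00674 followed, at 123 CPM in Ishikawa and 238 to 256 CPM over the T-47D libraries, LINC01578 at 66.6 and 62.1 CPM. LINC00641 (53.6 CPM), then LINC00998, and LINC01000 (46.5 CPM) came next in Ishikawa, and LINC00094 (61.6 CPM), LINC01420 (54.5 CPM) and LINC01278 (47.3 CPM) in T-47D. Per kilobase of canonical transcript, the level of LINC00657 was 91.1 CPM per kb in Ishikawa and 125 in T-47D, that of LINC00493 62.3 and 65.8, and that of LINC01578 39.1 and 36.4. No such value is given for LINC00674, whose annotated canonical transcript is only 160 bases long and belongs to a transcribed pseudogene, so that its reads may be shared with similar copies. The median member tested stood at 1.26 CPM in Ishikawa and 2.51 CPM in T-47D, against 22.4 and 21.0 CPM for all genes tested.

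Before E2, many members were present in 1 line and close to absent in the other. Since the level in either line chose the members, these differences are a description without a test. Levels under 3 counts in a library (0.0657 CPM in Ishikawa and 0.0701 CPM in T-47D) were set to that floor, which 20 members did not pass in Ishikawa and 13 did not pass in T-47D at 0 h. At least a 10-fold higher level was found for 17 members in Ishikawa and 29 in T-47D, a 2 to 10-fold higher level for 24 and 51, and 49 lay within 2-fold. The 46 members at least 10-fold apart were 27.1% of the 170, against 13.9% of 15188 other genes that passed the same level rule. Within bands of level the shares were 26.7% against 25.6% where the higher line was at 0.5 to 2 CPM, 31.7% against 27.9% at 2 to 10 CPM, and 18.75% against 8.68% at 10 CPM or more. In 151 of 170 members (88.8%) the 0 h replicates of the lines did not overlap, against 91.3% of the other genes at the same level rule.

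**Figure D1:**
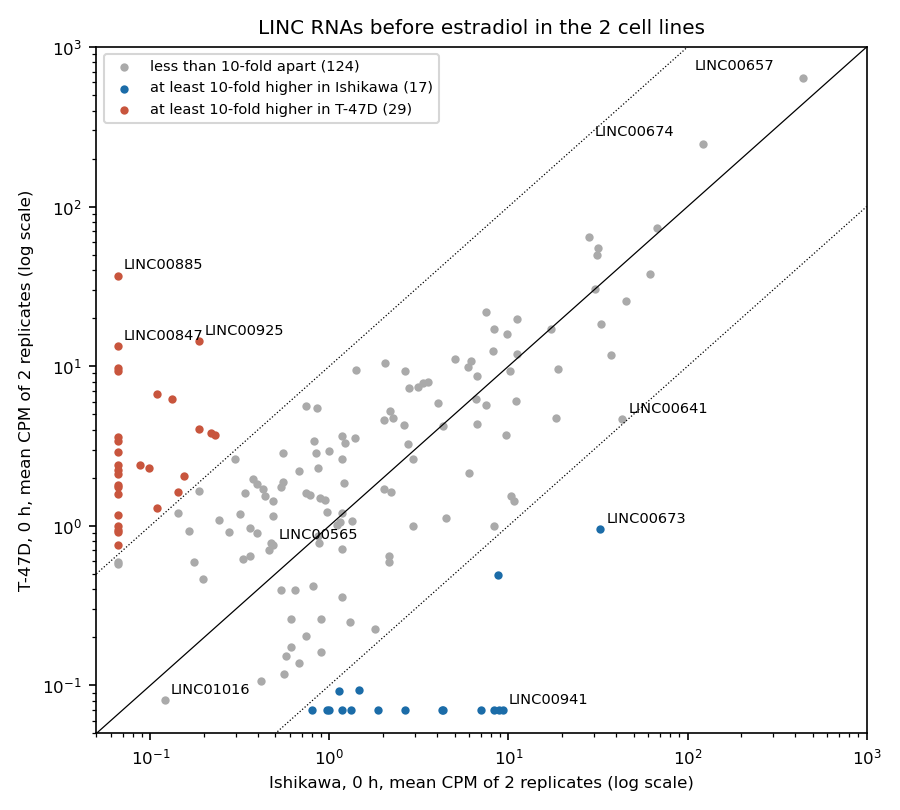
Each point is 1 of 170 LINC RNAs, with its mean CPM over 2 untreated replicates in Ishikawa (x axis, log scale) and T-47D (y axis, log scale), values under 3 counts drawn at that floor. Points lined up near the left and lower edges are at the floor in 1 line, 20 members in Ishikawa and 13 in T-47D. Coloured points are at least 10-fold apart, 29 higher in T-47D (red) and 17 higher in Ishikawa (blue), and not all of them are at the floor. Dotted lines mark 10-fold.

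In T-47D, LINC00885 stood at 36.3 and 37.5 CPM at 0 h, against 0.0438 CPM in each Ishikawa replicate, where this was 2 counts. LINC00847 stood at 13.5 and 13.2 CPM in T-47D and had no count in either Ishikawa replicate, which made it at least 203-fold higher in T-47D. LINC00925, a host transcript of a miR-9 precursor (MIR9-3HG), stood at 14.8 and 14.1 CPM in T-47D and at 0.0438 and 0.328 CPM in Ishikawa. LINC01511 (9.76 against 0.0657 CPM) and LINC00221 (9.28 against 0.0109 CPM) followed the same pattern.

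In Ishikawa, LINC00941 stood at 8.58 and 9.94 CPM with no count in either T-47D replicate, at least 132-fold higher. LINC01123 (8.71 and 8.91 CPM) and LINC00960 (8.85 and 7.84 CPM) also had no count in T-47D at 0 h, which made them at least 126-fold and 119-fold higher. LINC00673 stood at 32.5 and 32.4 CPM against 0.787 and 1.12 CPM in T-47D. LINC00641 stood at 42.4 and 43.9 CPM against 4.05 and 5.29 CPM. Among the 17 members at least 10-fold higher in Ishikawa, 1 rose and 2 fell with E2 in that line at any time, and among the 29 of T-47D, 1 rose and 7 fell, beside 24.3% and 34.2% of all genes called in either direction at any time. These classes and the fold changes share the 0 h libraries.

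Of the 170 members, 137 were tested for a response to E2 in Ishikawa and 151 in T-47D. The remaining 33 and 19 were too low in that line, and 118 were tested in both. A response at any time was called for 18 members in Ishikawa, 13.1% of those tested against 24.3% of all genes, and for 35 members in T-47D, 23.2% against 34.2%. The members that passed the filter were not all members, and low counts widen the error: at 8 h the median standard error of a member's log2 fold change was 0.60 below 0.5 CPM and 0.08 at 10 CPM or more in Ishikawa. Compared within levels, members under 0.5 CPM were called at 8 h in 0 of 19 cases in Ishikawa and 0 of 9 in T-47D by edgeR, against 3.11% and 5.11% of all genes at that level. Of these, 2 and 3 had an unadjusted p under 0.05 in edgeR, and DESeq2 gave none of them an adjusted p. Members at 0.5 to 2 CPM were called in 2 of 59 (3.39%) and 6 of 60 (10%), against 7.75% and 10.5%. Members at 2 to 10 CPM were called at 8 h in 10 of 40 cases (25%) in Ishikawa and 13 of 54 (24.1%) in T-47D, against 19% and 23.5% of all genes at that level. At 10 CPM or more they were called in 5 of 19 (26.3%) and 11 of 28 (39.3%), against 28.6% and 38.9%.

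**Figure D2:**
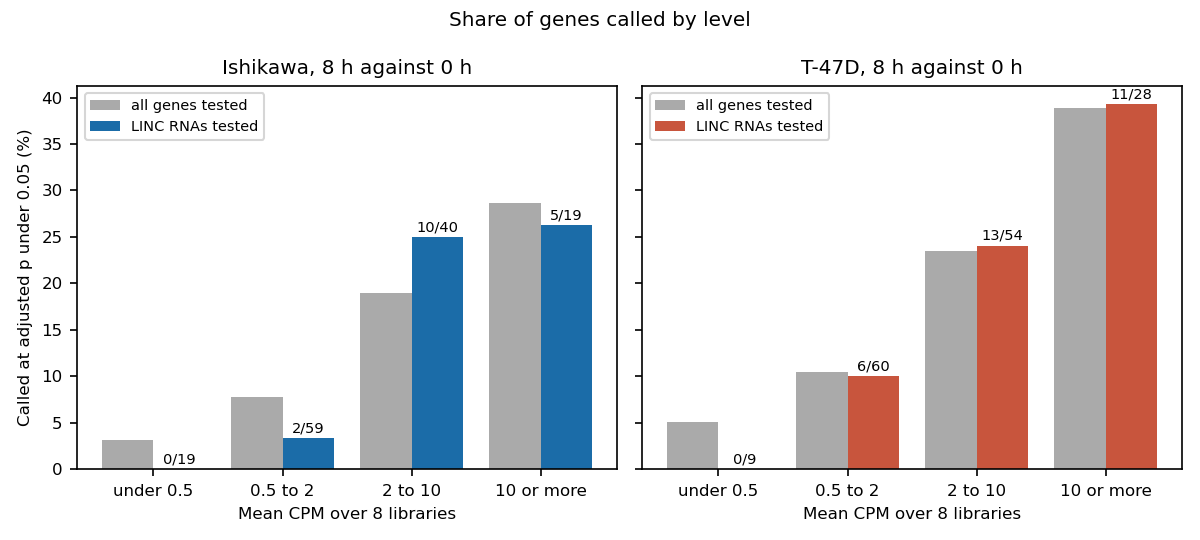
Bars give the percentage of genes called at 8 h against 0 h (adjusted p under 0.05) by mean CPM, for all genes tested (grey) and LINC RNAs tested (coloured), with Ishikawa on the left and T-47D on the right; numbers above the bars are LINC RNAs called and tested. In both lines the share climbs with level for all genes and for the LINC RNAs.

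In Ishikawa, the calls were upward at 2 h and in both directions later. At 2 h, 5 members rose (2.61% of all genes tested did) and 0 fell (1.74% of all genes). The 0 came with 8 members lower at an unadjusted p under 0.05 in edgeR and with 0 lower calls in DESeq2. At 4 h, 3 rose (7.66% of all genes) and 4 fell (6.6%), and at 8 h, 6 rose (12%) and 11 fell (10.1%). Between 2 and 8 h, 0 rose (1.06% of all genes) and 2 fell (1.17%), with 3 members higher at an unadjusted p under 0.05 in edgeR and 0 by DESeq2. As shares of the members tested, the counts at 8 h were 4.38% up and 8.03% down. The median log2 fold change of the members at 8 h was −0.21, against −0.01 for all genes.

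These counts leaned on single libraries. Without 0 h replicate 2 the count at 2 h was 2 in place of 5, at 4 h 3 in place of 7 (2 up and 1 down, in place of 3 and 4) and at 8 h 6 in place of 17 (4 up and 2 down, in place of 6 and 11), so that without it rises outnumbered falls, and without 8 h replicate 1 it was 11 at 8 h. Without 2 h replicate 1 or replicate 2, the count at 2 h was 3 or 2, and that of 8 h against 2 h was 0 in either case; it was 1 without either 8 h replicate. With the 4 h and 8 h libraries taken as 1 group, 20 members were called against 0 h, 7 higher and 13 lower.

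In T-47D the calls were more numerous and more even in direction. At 2 h, 10 members rose (4.9% of all genes tested did) and 3 fell (4.4%). At 4 h, 12 rose (11.1%) and 12 fell (10.4%), and at 8 h, 15 rose (15.4%) and 15 fell (14.3%). Between 2 and 8 h, 3 rose (9.53%) and 6 fell (7.23%). As shares of the members tested, the counts at 2 h were 6.62% up and 1.99% down, and those at 8 h 9.93% in each direction. The count at 2 h was 7 without 2 h replicate 1, in place of 13. That at 4 h was 13 without 0 h replicate 2 and 14 without 4 h replicate 1, in place of 24, and that at 8 h was 19 without 8 h replicate 2, in place of 30. That of 8 h against 2 h was 3, 5 and 3 without 2 h replicate 1, 2 h replicate 2 and 8 h replicate 1, in place of 9.

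**Figure D3:**
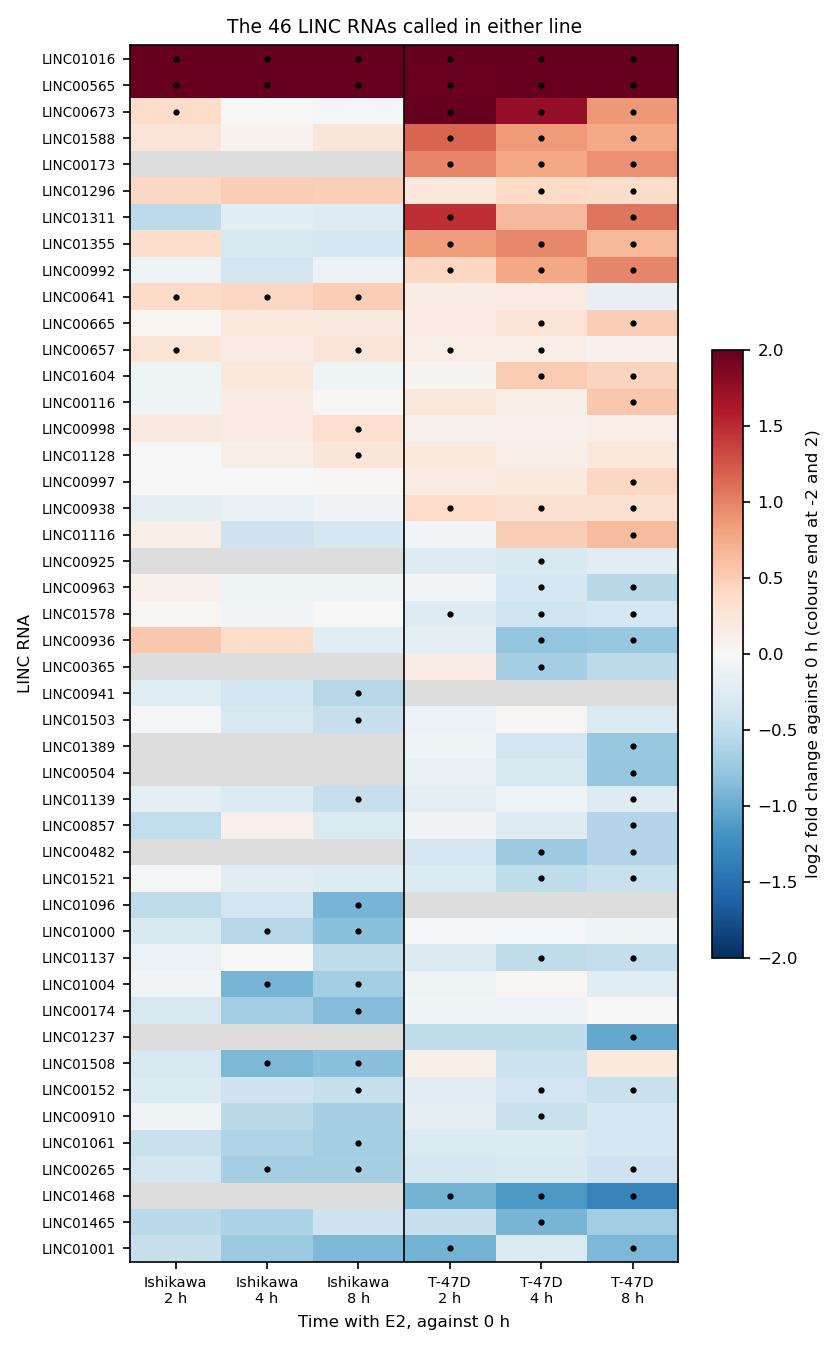
Colours give the log2 fold change against 0 h in edgeR for the 46 LINC RNAs called at any time in either line (rows), at 2, 4 and 8 h in Ishikawa (left 3 columns) and T-47D (right 3 columns); dots mark an adjusted p under 0.05, grey marks a member not tested and colours end at −2 and 2. LINC01016 and LINC00565 are red in all 6 columns, and the calls below them are mostly in 1 line.

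By time, the Ishikawa calls were 5 Early Up members (LINC00565, LINC00641, LINC00657, LINC00673 and LINC01016), 2 Late Up (LINC00998 and LINC01128), 11 Late Down and 0 Early Down. The T-47D calls were 10 Early Up (LINC00173, LINC00565, LINC00657, LINC00673, LINC00938, LINC00992, LINC01016, LINC01311, LINC01355 and LINC01588), 3 Early Down (LINC01001, LINC01468 and LINC01578), 6 Late Up and 16 Late Down. Of all genes tested, 2.61% rose and 1.74% fell at 2 h in Ishikawa, and 4.9% and 4.4% in T-47D. The Late classes were not counted over all genes, so the Late Up and Late Down counts have no background here. Called in both lines were 7 members, which is 38.9% of the Ishikawa calls and 20% of the T-47D calls, where over all genes the shares called in both lines were 51.9% and 37.3%: LINC00565, LINC00657, LINC00673 and LINC01016 rose, and LINC00152, LINC00265 and LINC01139 fell. Some called members, LINC00173 and LINC01468 among them, were not tested in the other line, and these shares were not matched for level.

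LINC01016 had the largest called fold change against 0 h of any member, in both lines. It reached the level rule only through the treated libraries, since it was under 0.5 CPM at 0 h in both lines, so its rise is in part what made it a member. The gene lies on chromosome 6, at chr6:33835283-33864693 (GRCh37) on the minus strand, between the motilin gene MLN and the glutamate receptor gene GRM4, and overlaps no coding gene. In T-47D its replicates gave 0.112 and 0.0485 CPM before E2, then 4.41 and 5.16 (2 h), 3.35 and 4.41 (4 h) and 3.21 and 3.70 CPM (8 h). In Ishikawa its replicates gave 0.0876 and 0.153 CPM before E2, then 0.807 and 1.35 (2 h), 0.534 and 0.725 (4 h) and 1.19 and 0.762 CPM (8 h). In each line all treated libraries were above both untreated ones, and the lines overlapped before E2 but not after it. The log2 fold changes at 2, 4 and 8 h were 5.82 ± 0.33 (SE), 5.52 ± 0.33 and 5.37 ± 0.34 in T-47D and 3.16 ± 0.50, 2.40 ± 0.54 and 3.04 ± 0.50 in Ishikawa, and the largest of their adjusted p was 0.0074. The fold change was larger in T-47D by 3.14 ± 0.82 at 4 h (interaction, adjusted p = 0.026). At 2 and 8 h that difference was 2.68 (adjusted p = 0.10) and 2.32 (adjusted p = 0.077). Without Ishikawa 0 h replicate 1 the Ishikawa call at 4 h was lost (adjusted p = 0.051). The untreated levels rest on a few counts per library, and the interaction at 4 h was lost without Ishikawa 0 h replicate 2 (adjusted p = 0.22), Ishikawa 4 h replicate 1 (0.062), T-47D 0 h replicate 2 (0.10) or T-47D 4 h replicate 2 (0.054).

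LINC00565 (SWINGN, at chr13:114626025-114631964) rose to similar levels in both lines. In Ishikawa its replicates gave 0.263 and 0.701 CPM before E2, then 2.11 and 1.75 (2 h), 3.18 and 2.47 (4 h) and 3.14 and 2.58 CPM (8 h). In T-47D its replicates gave 0.539 and 0.970 CPM before E2, then 2.63 and 3.29 (2 h), 3.26 and 2.85 (4 h) and 3.15 and 3.41 CPM (8 h). No treated library overlapped an untreated one in either line. The log2 fold changes were 2.00 ± 0.34, 2.58 ± 0.34 and 2.60 ± 0.33 in Ishikawa and 1.97 ± 0.25, 2.02 ± 0.24 and 2.13 ± 0.24 in T-47D, and all 6 calls were kept when any single library was left out. The difference between lines was −0.01 ± 0.41 at 2 h and −0.47 ± 0.46 at 8 h (adjusted p = 1 and 0.61), errors wide enough to leave differences of this size unresolved. Its nearest tested coding genes are GAS6, a ligand of TAM receptor kinases 58976 bases away, and RASA3, a Ras GTPase activator 115230 bases away. GAS6 rose at 8 h by 0.41 on the log2 scale in Ishikawa and 0.64 in T-47D, and RASA3 rose by 0.68 in Ishikawa and was at −0.15 (adjusted p = 0.18) in T-47D.

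**Figure D4:**
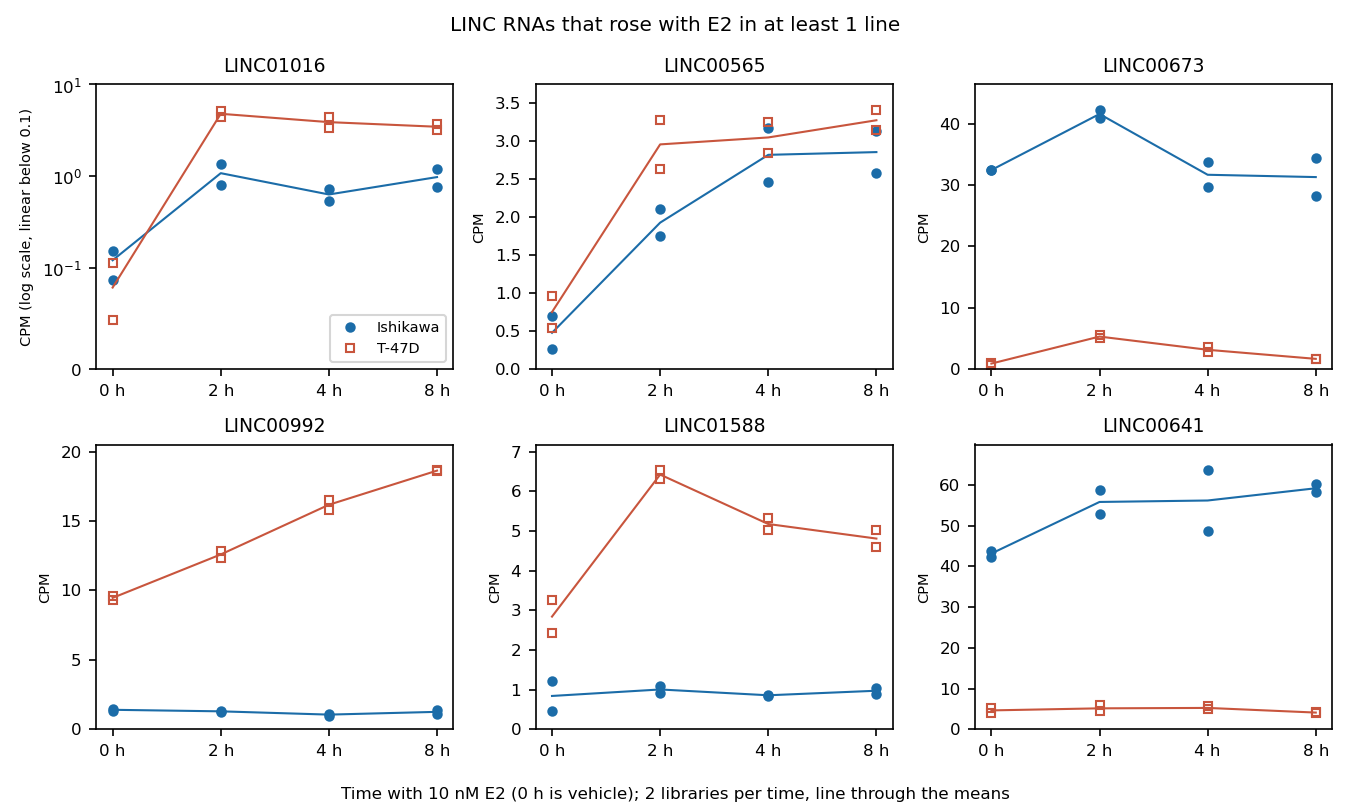
Points are CPM in single libraries (2 per time and line) along the E2 time course (x axis, hours) for 6 LINC RNAs, with lines through the means, Ishikawa as filled circles and T-47D as open squares; axes start at 0 and that of LINC01016 is logarithmic above 0.1. LINC01016 and LINC00565 climb in both lines, LINC00673 peaks at 2 h from very different starting levels, LINC00992 and LINC01588 climb in T-47D, and LINC00641 climbs in Ishikawa.

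LINC00673 gave a short early peak in both lines. It had no annotated position of its own on GRCh37. Its promoter window lies within the span of LINC00511 on the same strand (chr17:70286232-70636611), so reads may be shared between LINC00673 and LINC00511. In T-47D its replicates gave 0.787 and 1.12 CPM before E2, then 5.10 and 5.59 (2 h), 3.62 and 2.77 (4 h) and 1.69 and 1.74 CPM (8 h). In Ishikawa its replicates gave 32.5 and 32.4 CPM before E2, then 41 and 42.1 (2 h), 29.6 and 33.7 (4 h) and 34.4 and 28.2 CPM (8 h). The 2 h libraries were the highest in each line, and even the T-47D peak stayed under the lowest Ishikawa library. The log2 fold changes at 2, 4 and 8 h were 2.49 ± 0.21, 1.75 ± 0.21 and 0.87 ± 0.23 in T-47D, and from 2 to 8 h the level fell by 1.62 on the log2 scale (adjusted p = 1.12e-05). In Ishikawa the rise at 2 h was 0.37 ± 0.09 (adjusted p = 0.026), the later values were 0.00 and −0.02, and the level fell by 0.39 on the log2 scale from 2 to 8 h (adjusted p = 0.033). The Ishikawa call at 2 h was lost without 0 h replicate 2 (adjusted p = 0.18), 2 h replicate 1 (0.14) or 2 h replicate 2 (0.22), and that of 8 h against 2 h without 2 h replicate 1 (0.19), 2 h replicate 2 (0.28) or 8 h replicate 2 (0.39). The T-47D call at 8 h was lost without 0 h replicate 1 (0.086). The fold change was larger in T-47D by 2.14 ± 0.22, 1.77 ± 0.22 and 0.88 ± 0.24 at the successive times (interaction, adjusted p = 1.54e-06, 1.83e-05 and 0.022).

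LINC00657 (NORAD) rose by small steps on a high level. In Ishikawa its replicates gave 458 and 426 CPM before E2, then 530 and 526 (2 h), 462 and 505 (4 h) and 525 and 506 CPM (8 h). In T-47D its replicates gave 647 and 624 CPM before E2, then 702 and 703 (2 h), 710 and 687 (4 h) and 640 and 698 CPM (8 h). In both lines the untreated libraries lay below those at 2 h. The log2 fold change at 2 h was 0.27 ± 0.06 in Ishikawa (adjusted p = 0.011) and 0.14 ± 0.04 in T-47D (adjusted p = 0.043). The call at 2 h was lost in Ishikawa without 0 h replicate 2 (0.12), 2 h replicate 1 (0.15) or 2 h replicate 2 (0.12), and in T-47D without 0 h replicate 2 (0.17), 2 h replicate 1 (0.16) or 2 h replicate 2 (0.19).

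Several members were called up in T-47D and not in Ishikawa, and the difference between lines was called for some of them. LINC00992 (chr5:116751205-116881993) climbed at each time, from 9.60 and 9.34 CPM before E2 to 12.8 and 12.3 (2 h), 16.5 and 15.8 (4 h) and 18.6 and 18.6 CPM (8 h) in T-47D. Its Ishikawa libraries lay between 0.996 and 1.47 CPM with no order by time. The T-47D log2 fold changes were 0.41 ± 0.09, 0.77 ± 0.09 and 0.98 ± 0.09, the rise continued from 2 to 8 h by 0.58 ± 0.08 (adjusted p = 9.65e-05), and the difference between lines was 1.15 ± 0.21 at 4 h and 1.09 ± 0.20 at 8 h (adjusted p = 0.0014 and 0.0010). The call at 2 h was lost without 2 h replicate 1 (0.058).

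LINC01588 (chr14:50394289-50571820) peaked at 2 h in T-47D, at 6.32 and 6.53 CPM against 3.26 and 2.43 CPM at 0 h, then gave 5.32 and 5.03 CPM (4 h) and 4.60 and 5.01 CPM (8 h). Its log2 fold changes were 1.17 ± 0.15, 0.86 ± 0.15 and 0.76 ± 0.15, against 0.26 ± 0.39 at 2 h in Ishikawa (adjusted p = 0.80), and the difference between lines was not called (0.93 ± 0.40, adjusted p = 0.38). LINC00173 (chr12:116971227-116974323) gave 4.88 and 7.62 CPM before E2, then 13.2 and 11.5 (2 h), 9.54 and 11.8 (4 h) and 11.4 and 11.9 CPM (8 h) in T-47D, with log2 fold changes of 0.98, 0.77 and 0.91. It was too low to be tested in Ishikawa, at 0.0448 to 0.219 CPM. LINC01355 (chr1:23607800-23613981) went from 1.46 and 1.77 CPM before E2 to 3.03 and 2.75 (2 h), 2.96 and 3.37 (4 h) and 2.51 and 2.58 CPM (8 h) in T-47D (log2 fold change 0.96 ± 0.18 at 4 h, adjusted p = 0.00095), against −0.32 ± 0.29 in Ishikawa. The difference of 1.30 ± 0.35 (adjusted p = 0.031) was lost without either Ishikawa 0 h replicate, Ishikawa 4 h replicate 1, T-47D 0 h replicate 1 or either T-47D 4 h replicate (up to 0.17), and the T-47D calls at 2 and 8 h were lost without 0 h replicate 1 (0.056 and 0.096), 2 h replicate 1 (0.073 at 2 h) or 8 h replicate 2 (0.051 at 8 h). LINC01311 (chr22:19158908-19160364) went from 0.450 and 0.388 CPM at 0 h to 1.00 and 1.36 CPM at 2 h in T-47D, a log2 fold change of 1.48 ± 0.35 (adjusted p = 0.0090). At 4 h it was at 0.561 and 0.774 CPM, 0.65 ± 0.36 (adjusted p = 0.23), and its calls at 2 h were lost without T-47D 0 h replicate 2 (0.065) or 2 h replicate 2 (0.12).

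LINC00938 rose at all 3 times in T-47D, from 20.6 and 19 CPM before E2 to 25.8 and 25.4 (2 h), 24.5 and 24.9 (4 h) and 24.6 and 24.0 CPM (8 h). It begins 1846 bases from ARID2, a chromatin remodelling subunit gene read in the other direction, and ARID2 rose as well, by 0.36 at 2 h and 0.44 at 8 h beside 0.36 and 0.30 for LINC00938 (log2 fold change). In Ishikawa LINC00938 was at −0.18 ± 0.12 at 2 h, and the difference between lines was 0.56 ± 0.13 (adjusted p = 0.017). Without T-47D 0 h replicate 2 the T-47D calls at 4 and 8 h were lost (0.056 and 0.052).

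In Ishikawa, LINC00641 (chr14:21668238-21675059) rose at every time, from 42.4 and 43.9 CPM before E2 to 52.9 and 58.8 (2 h), 48.8 and 63.6 (4 h) and 60.1 and 58.2 CPM (8 h). Its log2 fold changes were 0.38 ± 0.09, 0.42 ± 0.09 and 0.49 ± 0.09. In T-47D its libraries overlapped across times, between 3.96 and 5.89 CPM, and the log2 fold change at 8 h was −0.16 ± 0.17 (adjusted p = 0.52). The difference between lines was −0.65 ± 0.19 at 8 h (adjusted p = 0.036), and it was lost without Ishikawa 0 h replicate 2 (0.061) or 8 h replicate 1 (0.061), T-47D 0 h replicate 2 (0.24) or either T-47D 8 h replicate (0.070 and 0.12). The Ishikawa call at 2 h was lost without 0 h replicate 1 (0.074), 0 h replicate 2 (0.18) or 2 h replicate 2 (0.34), and that at 4 h without 0 h replicate 2 (0.062) or 4 h replicate 2 (0.10, with a log2 fold change of 0.23).

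Of the 11 members that fell in Ishikawa, 0 h replicate 2 was the highest of the 8 libraries for 9, against 38 of the 118 members at the threshold, and values without it stand beside the members named here. These 11 were chosen by calls against the 0 h libraries. LINC01508 (chr9:93063167-93195848) gave 4.69 and 4.25 CPM before E2, then 3.42 and 3.67 (2 h), 2.31 and 2.37 (4 h) and 2.61 and 2.26 CPM (8 h). The 2 h libraries lay between the untreated and the later ones, and the log2 fold changes of −0.90 ± 0.18 at 4 h and −0.84 ± 0.18 at 8 h (adjusted p = 0.0038 and 0.0039) were kept without any single library. In T-47D it lay between 0.716 and 1.55 CPM, and the value at 8 h was 0.19 ± 0.31 (adjusted p = 0.70).

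LINC01000, one of the most abundant members, went from 51.3 and 72.5 CPM before E2 to 49.7 and 50.1 (2 h), 36.0 and 45.0 (4 h) and 31.5 and 36.0 CPM (8 h) in Ishikawa. In T-47D its libraries overlapped across times, between 33.0 and 42.5 CPM. The log2 fold changes in Ishikawa were −0.58 ± 0.13 at 4 h and −0.84 ± 0.13 at 8 h (adjusted p = 0.0071 and 0.00034). Without 0 h replicate 2 they were −0.31 (adjusted p = 0.14) and −0.58, and the latter call was kept. The call at 4 h was also lost without 4 h replicate 1 (0.096).

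LINC00174 fell to 1.65 and 1.93 CPM at 8 h from 2.91 and 3.72 CPM, a log2 fold change of −0.86 ± 0.24 (adjusted p = 0.017), and LINC01004 to 1.99 and 3.17 CPM at 4 h from 4.93 and 5.19 CPM, −0.94 ± 0.20 (adjusted p = 0.0051). LINC01061 fell by 0.68 and LINC01096 by 0.94 on the log2 scale at 8 h (adjusted p = 0.018 and 0.021). LINC01096 had no count in any T-47D library. Without 0 h replicate 2 all of these calls were lost, with adjusted p of 0.18 for LINC00174, 0.055 for LINC01004, 0.27 for LINC01061 and 0.24 for LINC01096. They were also lost without a treated library, namely 8 h replicate 1 for LINC00174 (0.095), LINC01061 (0.095) and LINC01096 (0.17), and 4 h replicate 1 for LINC01004 (0.063). LINC01061 read −0.40 in place of −0.68 without 0 h replicate 2.

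**Figure D5:**
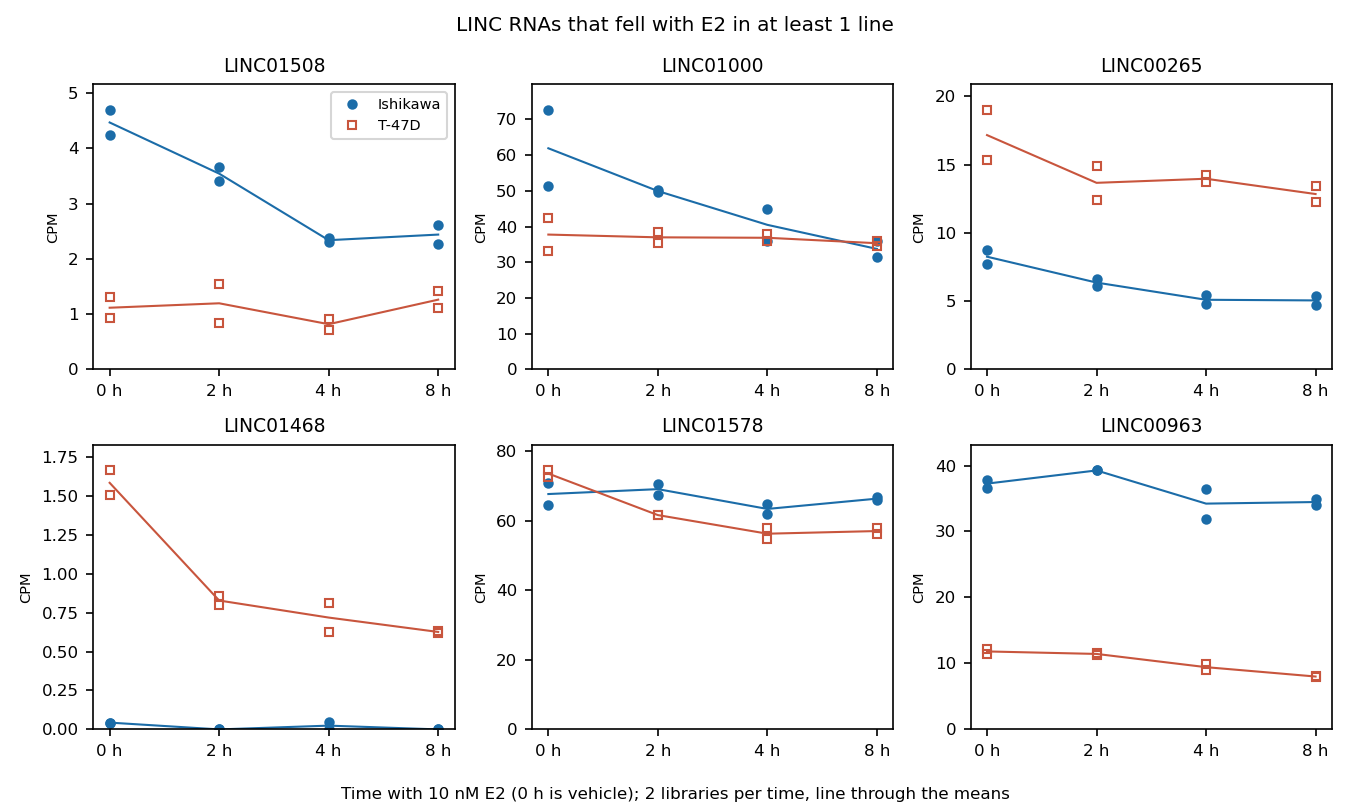
Points are CPM in single libraries (2 per time and line) along the E2 time course (x axis, hours) for 6 LINC RNAs, with lines through the means, Ishikawa as filled circles and T-47D as open squares; all axes start at 0. LINC01508 and LINC01000 decline in Ishikawa, LINC00265 in both lines, and LINC01468, LINC01578 and LINC00963 in T-47D.

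Of the 16 Late Down members in T-47D, 0 h replicate 2 was the highest of the 8 libraries for 8. Of the 3 Early Down members it was the highest for 1, against 37 of the 142 members at the threshold. In T-47D, LINC01468 (LNCAROD, at chr10:54210634-54515269) fell early and stayed low, from 1.66 and 1.5 CPM before E2 to 0.857 and 0.798 (2 h), 0.624 and 0.813 (4 h) and 0.618 and 0.634 CPM (8 h). Every treated library was below both untreated ones. The log2 fold changes were −0.94 ± 0.28, −1.15 ± 0.28 and −1.33 ± 0.29 (adjusted p = 0.044, 0.0061 and 0.0017). LNCAROD is named as an activating regulator of DKK1, a secreted Wnt inhibitor. DKK1 is its nearest tested coding gene, at 132832 bases, with a mean of 2.04 CPM in T-47D. DKK1 fell by 0.64 on the log2 scale at 8 h (adjusted p = 0.017), and a link between the changes of LINC01468 and DKK1 was not tested. The call at 2 h was lost without either 0 h replicate (0.16 and 0.10), either 2 h replicate (0.17 and 0.21) or 4 h replicate 2 (0.052), that at 4 h without 4 h replicate 1 (0.092), and that at 8 h was kept throughout. In Ishikawa the transcript was at or under 0.0486 CPM and was not tested.

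LINC01578 (CHASERR, at chr15:93362770-93442931) fell from 74.4 and 72.6 CPM before E2 to 61.5 and 61.7 (2 h), 57.8 and 54.7 (4 h) and 56.0 and 58.0 CPM (8 h) in T-47D. In Ishikawa its libraries lay between 62.0 and 70.8 CPM, and treated and untreated libraries overlapped. The log2 fold changes in T-47D were −0.26 ± 0.05, −0.39 ± 0.05 and −0.36 ± 0.05, and the difference between lines was −0.32 ± 0.08 at 4 h and −0.37 ± 0.08 at 8 h (adjusted p = 0.024 and 0.0061). The difference at 4 h was lost without Ishikawa 0 h replicate 2 (0.098), T-47D 0 h replicate 1 (0.094) or T-47D 4 h replicate 2 (0.13). Its annotated span overlaps CHD2 on the same strand, so reads may be shared between the pair, and CHD2 was at −0.36 ± 0.06 at 8 h in T-47D and −0.06 ± 0.06 in Ishikawa. The T-47D call at 2 h was at an adjusted p of 0.051 without 2 h replicate 1.

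LINC00963 stepped down late in T-47D, from 11.5 and 12.2 CPM before E2 and 11.3 and 11.5 (2 h) to 8.98 and 9.89 (4 h) and 7.89 and 8.14 CPM (8 h). The log2 fold change was −0.55 ± 0.10 at 8 h (adjusted p = 0.00035; the interaction was −0.47 ± 0.11, adjusted p = 0.0093), against −0.08 ± 0.07 in Ishikawa, where it stood at 32.0 to 39.3 CPM. LINC01237 fell by 1.02 and LINC00504 by 0.77 on the log2 scale at 8 h in T-47D (adjusted p = 0.0067 and 0.0027), and both calls were kept without any single library. LINC00504 went from 3.57 and 3.18 CPM at 0 h to 1.99 and 1.94 CPM at 8 h. At levels of 0.5 to 2 CPM, LINC00936 and LINC01465 were lower at 4 h, by −0.79 and −0.93 (log2 fold change, adjusted p = 0.020 and 0.044), and LINC01001 at 2 h, by −0.95 (adjusted p = 0.031). LINC00936 was lost without any 1 of the 0 h or 4 h replicates (adjusted p up to 0.13), LINC01001 without 0 h replicate 1 or 2 or 2 h replicate 1 (up to 0.34, with −0.62 without the last), and LINC01465 without any 1 of the 0 h, 2 h or 4 h replicates (up to 0.29).

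The 3 members that fell in both lines fell late. LINC00265 went from 7.73 and 8.78 CPM at 0 h to 5.4 and 4.71 CPM at 8 h in Ishikawa and from 15.4 and 19 to 12.3 and 13.4 CPM in T-47D, log2 fold changes of −0.67 ± 0.14 and −0.41 ± 0.11 (adjusted p = 0.0040 and 0.0082). LINC00152 (CYTOR) changed by −0.46 ± 0.15 and −0.45 ± 0.10 at 8 h (adjusted p = 0.042 and 0.0022), and LINC01139 by −0.46 ± 0.14 and −0.26 ± 0.09 (adjusted p = 0.025 and 0.041). LINC00152 has a near-identical copy, MIR4435-2HG, which is a row of its own in these tables, so its counts may be shared. Without 0 h replicate 2 the adjusted p in Ishikawa was 0.056 for LINC00265, 0.14 for LINC00152 and 0.28 for LINC01139 (log2 fold change −0.28), and that in T-47D 0.15 for LINC00265 (−0.25) and 0.18 for LINC01139. LINC00265 was lost in T-47D also without 8 h replicate 1 (0.068). LINC00152 was lost in Ishikawa without either replicate of 0 h or 2 h or 8 h replicate 1 (up to 0.38, with a log2 fold change of −0.22 without the last), and LINC01139 without 8 h replicate 2 in Ishikawa (0.16) and without any 1 of the 0 h, 2 h or 8 h replicates in T-47D (up to 0.18).

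The difference in response between lines was tested for all 170 members, of which 118 were high enough to be tested in each line alone. For the others 1 line was too low, so a missing call there does not show an equal response. At 2 h the fold change was higher in T-47D for 3 members (1.4% of all genes tested) and lower for 0 (1.28%), with 2 members lower at an unadjusted p under 0.05 in edgeR and 1 by DESeq2. At 4 h it was higher for 6 (3.21%) and lower for 1 (2.83%), and at 8 h higher for 4 (5.32%) and lower for 3 (4.7%). In all, 12 members differed at some time: LINC00174, LINC00641, LINC00673, LINC00938, LINC00963, LINC00992, LINC01000, LINC01004, LINC01016, LINC01311, LINC01355 and LINC01578. The count at 2 h was 1 without Ishikawa 2 h replicate 1 or 2, T-47D 0 h replicate 2 or T-47D 2 h replicate 1 or 2. That at 4 h was 3 without Ishikawa 4 h replicate 1, T-47D 0 h replicate 1 or T-47D 4 h replicate 2. That at 8 h was 12 without Ishikawa 0 h replicate 1 and 4 without T-47D 0 h replicate 1 or T-47D 8 h replicate 1.

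Some LINC names are now known to encode small proteins. Of a separate list of 12 such names, 9 were rows and 5 were tested in each line. It is not the set of 12 members listed as protein-coding in RefSeq, all of which were tested in each line. In each line 1 name of the list was called at 8 h, where 22.1% of all genes in Ishikawa and 29.7% in T-47D were called in either direction. That share is too near the background to set the list apart. The calls were LINC00998 (SMIM30) in Ishikawa and LINC00116 (mitoregulin, of the mitochondrial inner membrane) in T-47D, both at 8 h. LINC00998 went from 46.9 and 43.3 CPM at 0 h to 56.1 and 54.7 CPM at 8 h (0.33 ± 0.07, adjusted p = 0.0043), and LINC00116 from 3.46 and 4.92 to 5.98 and 6.04 CPM (0.53 ± 0.15, adjusted p = 0.015). The latter was lost without 0 h replicate 1 (0.18, with a log2 fold change of 0.30) or 8 h replicate 2 (0.056). The small-protein names LINC00493, LINC01420 and LINC00467 gave no call at any time, with log2 fold changes at 8 h of −0.05, 0.09 and 0.05 in Ishikawa and 0.12, −0.04 and 0.03 in T-47D.

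Of a list of 12 LINC RNAs described in hormone or growth signalling, 11 were rows, 8 were tested in Ishikawa and 7 in T-47D. LINC01016, LINC00657 and LINC00673 were the 3 that rose at 2 h in both lines, beside 2.61% and 4.9% of all genes. The list was picked for such a role, LINC01016 became a member only through its treated libraries, and an excess was not tested. LINC00665 rose in T-47D, from 18.4 and 18.5 CPM at 0 h to 26.7 and 24.8 CPM at 8 h (0.49 ± 0.07, adjusted p = 6.25e-05). LINC00511 was at 0.723 and 1.27 CPM at 0 h in Ishikawa with no count in T-47D at 0 h, and its value in Ishikawa at 8 h was −0.34 ± 0.38 (adjusted p = 0.57). LINC00662 stood at 5.71 and 6.39 CPM in Ishikawa and 2.29 and 2.01 CPM in T-47D at 0 h and was not called. Of a list of 4 LINC names of miRNA host transcripts, LINC00472 was a member, and it was called in neither edgeR nor DESeq2. At 8 h it was at −0.63 ± 0.23 in Ishikawa (adjusted p = 0.060) and −0.28 ± 0.12 in T-47D (adjusted p = 0.094). Members outside that list also carry miRNA host names. LINC00925 (MIR9-3HG) was called lower in T-47D at 4 h, by −0.31 (log2 fold change, adjusted p = 0.023 in edgeR). That call was lost without any 1 of the 0 h or 4 h replicates, with −0.27 without 0 h replicate 1. LINC00669 (MIR924HG) and LINC00969 (MIR570HG) were called in neither line.

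For comparison, 36 of 38 long noncoding RNAs with other names were rows. In T-47D, 33 of them were tested, and at 8 h 14 rose and 3 fell, beside 15.4% and 14.3% of all genes. The 14 included the small nucleolar RNA hosts SNHG1, SNHG3, SNHG12, SNHG15 and SNHG16, which had risen at 2 h. In Ishikawa 31 were tested, and at 8 h 4 rose and 2 fell, beside 12% and 10.1% of all genes. Of 12 classical estrogen-induced coding genes, such as GREB1 and PGR, 9 were tested in Ishikawa and 12 in T-47D. At 8 h, 8 rose and 0 fell in Ishikawa and 11 rose and 0 fell in T-47D.

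Coding neighbours of the called members were compared at the time of the member's largest called change. In Ishikawa, 14 called members had 23 tested nearest neighbours, of which 7 were called in the member's direction and 3 in the other (43.5% called). Of all genes in that line, 4.35%, 14.3% and 22.1% were called at 2, 4 and 8 h. In T-47D, 29 members had 51 tested neighbours, of which 17 were called in the same direction and 2 in the other (37.3%). Of all genes in that line, 9.3%, 21.5% and 29.7% were called at 2, 4 and 8 h. Of all genes at 10 CPM or more, 28.6% in Ishikawa and 38.9% in T-47D were called at 8 h. The times of the members and the levels of the neighbours were mixed, so no single share is the background of these counts. Within 100 kb, 5 of 12 in Ishikawa and 9 of 33 in T-47D were called in the same direction, and 1 and 2 in the other. In Ishikawa, LINC01096 fell at 8 h together with NKX3-2, a homeobox gene 1567 bases away that changed by −0.48 (adjusted p = 0.039), and BOD1L1, which changed by −0.36.

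Pairs that begin head to head were compared at closer range. Most coding partners stood at 10 CPM or more, a level at which 38.9% of all genes in T-47D and 28.6% in Ishikawa were called at 8 h. In T-47D, 24 pairs were tested at 8 h, where 29.7% of all genes were called in either direction. In 4 of them the LINC RNA was called, and all 4 coding partners were called in the same direction: ARID2 with LINC00938 upwards, and PATZ1 with LINC01521, ATP2B1 with LINC00936 and ANXA11 with LINC00857 downwards. Of these member calls at 8 h, LINC00857 was lost without T-47D 0 h replicate 1 (adjusted p = 0.086) or 8 h replicate 2 (0.084), LINC00936 without 0 h replicate 1 (0.066), 0 h replicate 2 (0.073) or 8 h replicate 1 (0.12), and LINC00938 without 0 h replicate 2 (0.052), whereas LINC01521 was kept. In the other 20 pairs, 9 partners were called, 3 of them with the sign of the LINC RNA's value. LINC01521 and PATZ1, a zinc finger transcription factor gene, begin 431 bases apart and changed by −0.44 and −0.27 at 8 h. In Ishikawa, where 22.1% of all genes were called at 8 h, 0 of 22 members in such pairs were called at 8 h by edgeR or by DESeq2 (2 at an unadjusted p under 0.05 in edgeR) and 8 partners were, 4 of them with the sign of the LINC RNA's value. LINC00936 overlaps ATP2B1 on the opposite strand, at 1.44 CPM beside 148 CPM in T-47D. The strand setting of the counting is not given, so reads may be shared between that pair. The counts of pairs were not tested.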

How the data were processed

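The authors' deposited tables hold raw read counts per gene for 16 bulk RNA-seq libraries, 8 per cell line. Per the paper's methods and the submitters' processing notes, reads were aligned to hg19 with HISAT2, handled with SAMtools, counted with featureCounts on UCSC Known Genes and compared with DESeq2. Versions and the settings for strand, read pairs and multimapping reads are not given in the sources used here. Small counts were mostly even (members' counts of 1 to 10, median 73.3% in Ishikawa and 60% in T-47D), so counts divided by 2 were an alternative, beside other scaling and filters, a replicate block, joined late times and leaving out each library.

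Counts were tested as deposited in edgeR 4.0.16 (R 4.3.3) with TMM scaling, filterByExpr and the quasi-likelihood F test, per line with time as a factor, and over 16 libraries for the difference between lines. Calls are at a Benjamini-Hochberg adjusted p under 0.05 over all genes tested. DESeq2 1.42.0 was an alternative. Fits were tested on simulated counts. CPM divides by the column total; shares and floors cover counting error only. Positions and canonical transcript lengths are GENCODE v44 lifted to GRCh37, and names and promoters are RefSeq (GRCh38.p14).

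Named were the 6 most abundant members per line, up to 6 called per direction and line with a mean of at least 20 counts, up to 6 called in both lines or in the interaction, list members, members at the cut-off, and nearest coding genes. LINC00173, LINC00885, LINC00847, LINC00925, LINC01511, LINC00221, LINC00941, LINC01123, LINC00960, LINC00938, LINC00963, LINC01521 and LINC00857 with the other members given by name alone were named after their values were seen. Members and lists were chosen with earlier results of these data known. Samples sharing a replicate number did not deviate together (r from −0.217 to 0.116), so the block is an alternative. One result on a coding neighbour is not reported here.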

Additional observations from a re-analysis of the deposited data

Results flagged for a closer look

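The response to E2 differed between lines for 12 members at one or more times, 17 differences in all, each tested as the interaction of line and time in edgeR (log2 fold change in T-47D minus that in Ishikawa). At 2 h the difference was 2.14 for LINC00673, 2.01 for LINC01311 and 0.56 for LINC00938. At 4 h it was 3.14 for LINC01016, 1.77 for LINC00673, 1.30 for LINC01355, 1.15 for LINC00992, 0.99 for LINC01004, 0.46 for LINC00938 and −0.32 for LINC01578. At 8 h it was 1.09 for LINC00992, 0.88 for LINC00673, 0.87 for LINC00174, 0.75 for LINC01000, −0.65 for LINC00641, −0.47 for LINC00963 and −0.37 for LINC01578.

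LINC00673 was the member that differed at all 3 times, and its differences at 2 and 4 h were kept in every alternative run. The difference at 8 h was lost without Ishikawa 8 h replicate 2 (adjusted p = 0.066), T-47D 0 h replicate 1 (0.20) or either T-47D 8 h replicate (0.062 and 0.069). LINC00992 kept both of its differences under every alternative run. LINC01311 rested on the weakest call (adjusted p = 0.046) and was lost without any of 12 single libraries, with the adjusted p up to 0.33. The difference for LINC01000 at 8 h read 0.50 (adjusted p = 0.055) without Ishikawa 0 h replicate 2, and it was also lost without Ishikawa 8 h replicate 1 (0.062) or T-47D 0 h replicate 1 (0.061). The difference for LINC00174 was lost without any of 8 single libraries, up to an adjusted p of 0.18, and that for LINC01004 without Ishikawa 4 h replicate 1 (0.098) or T-47D 0 h replicate 1 (0.060). The difference for LINC00938 was lost at 2 h without any of 6 single libraries (up to 0.13) and at 4 h under 18 of 24 alternatives, RLE scaling (0.067) and no filter on low counts (0.058) among them. The difference for LINC00963 was lost in 1 of 24 alternatives, with the 4 h and 8 h libraries as 1 group (0.053).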

How the results depend on the processing

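In edgeR, leaving out 1 library at a time gave 2 to 7, 3 to 10 and 6 to 23 members called at 2, 4 and 8 h in Ishikawa and 0 to 3 for 8 h against 2 h. In T-47D it gave 7 to 13, 13 to 23 and 19 to 29, and 3 to 11 for 8 h against 2 h, and in the interaction 1 to 4, 3 to 9 and 4 to 12 at 2, 4 and 8 h. Without a filter on low counts, 14 members were called at 4 h and 6 for 8 h against 2 h in Ishikawa, and 7 and 11 in the interaction at 2 and 8 h. DESeq2 called 1 for 8 h against 2 h in Ishikawa and 5 in the interaction at 2 h. With the 4 h and 8 h libraries as 1 group, 20 were called in Ishikawa at 4 h and 4 against 2 h in each line. A fit to the time points compared alone called 1 and 4 in the interaction at 2 and 4 h. The cause of these shifts was not tested. All other counts stayed within 1.5 times of the main one, and no value of a named member changed sign. With the replicate number as a block the counts were 5, 9, 17 and 2 in Ishikawa, 11, 22, 29 and 8 in T-47D and 2, 7 and 7 in the interaction; replicate numbers did not pair the samples. Of the calls of members named by the rule, the block ended 4 of 88, DESeq2 11 of 88, halved counts 3 of 88, the compared time points alone 7 of 88, the joined late group 10 of 70 and a left-out library 149 of 816, whereas RLE scaling and no filter ended 0 of 88 in edgeR. Members under 2 CPM had standard errors near 0.3 or more, so changes of that size were not detectable at this depth.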
